A study of Mus musculus with 10 samples.

Results

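Lysosomal cathepsins and their partner enzymes in antigen processing were followed in splenic B cells of mice with liver fibrosis. The set holds 10 genes of the 54532 in the deposited count table: Ctsa, Ctsb, Ctsc, Ctsd, Ctsh, Ctsl, Ctss, Ctsz, Lgmn and Ifi30. Each was taken by its symbol, and none of the symbols occurred more than once. The fibrosis group (5 libraries) came from mice given carbon tetrachloride intraperitoneally over 4 weeks, and the control group (5 libraries) from wildtype mice. The labels give no strain, sex or age, do not say whether each library is a separate animal, and do not tell what the controls received. In fibrosis, Ctsh and Ctss rose in all 5 libraries, by 1.46-fold (95% interval 1.28 to 1.66) and 1.43-fold (1.21 to 1.68). Lgmn was called higher in the same test, and the call was lost without fibrosis libraries 4 and 5. Ctsb, Ctsd and Ctsl split the fibrosis group, high in libraries 4 and 5 and low in libraries 1 to 3. Ifi30 differed by -0.03 on the log2 scale, while most class II genes rose.

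Cathepsins are proteases of endosomes and lysosomes that are made as inactive precursors and become active in the acidic lumen. In B cells they cut internalised antigen and degrade the invariant chain (Cd74), the chaperone that fills the groove of class II molecules until a peptide takes its place. Most of the family are cysteine proteases. Ctsd is an aspartic protease, Ctsa a serine carboxypeptidase, Lgmn (legumain) a cysteine protease that cuts after asparagine, and Ifi30 (GILT) a thiol reductase that opens disulfide bonds before antigen is cut. Many lysosomal genes carry E-box motifs bound by TFEB and its relatives, and Ctss and Ifi30 are known as interferon-responsive genes.

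Promoter sequence was searched for 4 kinds of motif, each on both strands, in the 250 bases before the start site of the 8 members matched in RefSeq (GRCm38.p6). The motifs were the E-box CACGTG, the interferon-stimulated response element GAAANNGAAA, the gamma-activated site TTCNNNGAA and the CCAAT box. In 32851 promoters of this length, an E-box occurred in 6.02%, the response element in 2.98%, the gamma-activated site in 7.02% and CCAAT in 33.8%. E-boxes lay in the windows of Ctsd (98 and 245 bases before the start), Ctsl (236 bases) and Ifi30 (196 bases). The RefSeq start of Ctsl lies 370 bases, and that of Ctsd 211 bases, inside the gene span of the count table, so the Ctsl match and the Ctsd match at 98 bases fall within the annotated gene. The E-boxes of Ctsd and Ifi30, but not that of Ctsl, also matched the longer TCACGTG, found in 3.13% of promoters. A response element lay 21 bases before the start of Ctss, and a gamma-activated site 236 bases before that of Ctsc. CCAAT lay in the windows of Lgmn (88 bases) and Ctsz (234 bases), and none of these motifs in that of Ctsa. The RefSeq start of Lgmn lies 85 bases inside its gene span, so its CCAAT match crosses the edge of the annotated gene. A match is a description of the letters and not a measured binding site. The windows of Ctss, which rose, and of Ifi30, which stayed near its control level, are shown whole, and that of Ctsd, which had the widest spread in fibrosis, only up to its annotated gene span. Capitals mark motif matches, read 5′ to 3′ on the gene's strand. The windows are chr3:95526536-95526785 (plus strand) for Ctss, chr8:70766664-70766913 (minus) for Ifi30 and chr7:142388039-142388077 (minus) for Ctsd, in GRCm38.p6.
Ctss: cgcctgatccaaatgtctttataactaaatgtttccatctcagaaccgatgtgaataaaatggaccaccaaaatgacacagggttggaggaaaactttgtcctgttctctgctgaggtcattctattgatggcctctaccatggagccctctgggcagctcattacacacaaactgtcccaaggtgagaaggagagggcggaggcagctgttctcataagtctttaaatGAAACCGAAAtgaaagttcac
Ifi30: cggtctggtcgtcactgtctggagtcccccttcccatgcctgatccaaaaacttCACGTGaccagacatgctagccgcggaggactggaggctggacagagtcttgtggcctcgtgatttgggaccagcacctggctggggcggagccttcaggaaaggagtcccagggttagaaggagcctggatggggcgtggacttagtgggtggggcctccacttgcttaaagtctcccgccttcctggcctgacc
Ctsd: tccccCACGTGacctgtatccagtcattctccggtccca

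Libraries held 13439100 to 17954551 counts, and each of the 10 genes had at least 230 counts in every library. All 10 were among the 14283 genes tested with edgeR. Over all tested genes, 2654 were called higher and 2451 lower in fibrosis, 35.7% in either direction (18.6% higher and 17.2% lower); with library size as the only scaling these were 1777 and 3306. Among the 10 members, 3 were called higher and 0 lower, and 7 were not called. At an unadjusted p under 0.05 the count of lower members was also 0, as were those called lower by DESeq2 and by limma voom. The median log2 change was 0.20 over the members and 0.05 over all tested genes. Fibrosis libraries 4 and 5 stood apart in several marker lists for other cell types, so the members are also given without them, and other genes and lists where that fit changed a call or a count. In that fit, 2 members were called higher and 2 lower, against 18.4% and 18.8% of all genes, and the median of the members was 0.03, as was that of all genes. The 2 libraries left out were picked from these same data. For genes highest in them, such as Ctsb and Ctsd, a lower level in that fit is therefore partly fixed by the choice. For genes that were lowest in them within the fibrosis group, a higher level is partly fixed in the same way.

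B cell genes were abundant in all libraries: the 12 B cell markers summed to 7699 to 11172 CPM (TMM-scaled counts relative to library size) in fibrosis and 7573 to 8664 CPM in control. Macrophage and monocyte transcripts were present beside them. Their 20 markers summed to 3672, 2932, 2318, 7280 and 8326 CPM in fibrosis 1 to 5, and to 6096, 6392, 3839, 6277 and 4355 CPM in control 1 to 5. None of the 20 was at 0 in any library. Dendritic cell markers (15 genes) summed to 497 to 690 CPM in fibrosis and 268 to 294 CPM in control, and 9 of 15 were called, all higher (8 without fibrosis 4 and 5). Platelet markers (8 genes, all called higher) summed to 315 to 1279 CPM against 189 to 236 CPM. Erythroid markers (11 tested genes, 6 called, all lower, and 10 without fibrosis 4 and 5) summed to 869 to 7524 CPM against 3549 to 5886 CPM. The 13 neutrophil markers summed to 460 to 4835 CPM against 817 to 2028 CPM, with the highest sums in fibrosis 4 and 5. T cell markers (13 genes, 4 called, all higher) summed to 87.1 to 187 CPM against 73.9 to 104 CPM, and NK cell markers (10 genes, 5 called, all higher) to 87.7 to 187 CPM against 77.7 to 131 CPM. In the fit without fibrosis 4 and 5, 1 T cell marker was called higher and 1 lower, and 3 NK cell markers higher and 1 lower. No marker of these lists was at 0 in any library. In bulk samples such as these, fewer cells of a type and less RNA per cell cannot be told apart.

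Ctss (ENSMUSG00000038642, chromosome 3, 95526786 to 95556403, plus strand, GRCm38) encodes cathepsin S, the endopeptidase known for the last cuts of the invariant chain in B cells and dendritic cells. It stood at 560, 647, 555, 680 and 783 CPM in fibrosis 1 to 5, and at 491, 448, 424, 487 and 411 CPM in control 1 to 5. All fibrosis libraries lay above all controls, which 11.4% of tested genes did, and fibrosis 5 was highest. Group means were 645 ± 94.3 and 452 ± 36.1 CPM (SD over 5 libraries, fibrosis first). Ctss thus rose by 0.51 ± 0.11 on the log2 scale (SE), with an edgeR adjusted p of 0.00270. Without fibrosis 4 and 5 it was 0.38 ± 0.09 (edgeR adjusted p = 0.00407). The summed markers of dendritic cells, which also express Ctss, were above the controls in the same 5 libraries, and their part in the Ctss and Ctsh results was not tested.

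Ctsh (ENSMUSG00000032359, chromosome 9, 90054152 to 90076089, plus strand) encodes cathepsin H, an aminopeptidase that trims peptides from their amino end. Its levels were 374, 364, 372, 394 and 447 CPM in fibrosis 1 to 5, and 277, 269, 260, 286 and 243 CPM in control 1 to 5. The groups did not overlap, and the first 4 fibrosis libraries lay within a narrow band. Means of the groups were 390 ± 33.4 CPM (fibrosis) and 267 ± 16.5 CPM (control; SD, n = 5). The change was 0.55 ± 0.09 on the log2 scale (SE), with an edgeR adjusted p of 0.000385. Leaving out fibrosis 4 and 5 gave 0.48 ± 0.07 (edgeR adjusted p = 0.000383). Both Ctsh and Ctss were called higher under all 22 alternatives of scaling, filter, test, unit and library. Neither shares exon bases with another gene in the GENCODE vM21 annotation. The FPKM ratio of Ctss to Ctsh (counts per gene length and library size) was 5.46 ± 0.469 in fibrosis and 5.61 ± 0.174 in control, a difference smaller than the spread between libraries.

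**Figure D1:**
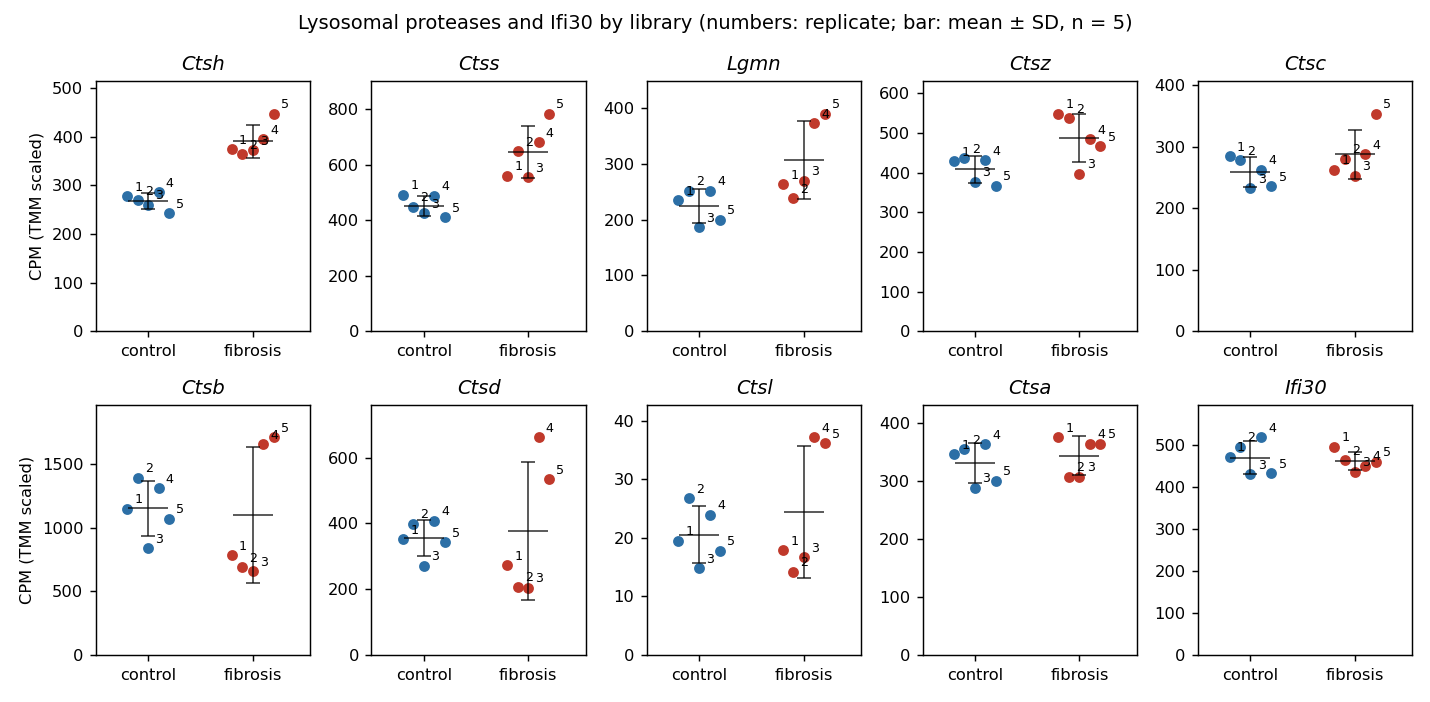
CPM (TMM scaled, axes from 0) of each of the 10 genes in the control (blue) and fibrosis (red) libraries; points carry the replicate number, and bars give the mean ± SD of 5 libraries. The 5 fibrosis libraries lie above all controls for Ctsh and Ctss, whereas Ctsb, Ctsd and Ctsl have fibrosis 4 and 5 above all controls and fibrosis 1 to 3 below them or low in their range.

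Lgmn (ENSMUSG00000021190, chromosome 12, 102394084 to 102439813, minus strand) encodes legumain, which also matures other cathepsins by cutting them into chains. It had 264, 238, 270, 373 and 390 CPM in fibrosis 1 to 5, and 235, 252, 186, 252 and 200 CPM in control 1 to 5. Fibrosis 4 and 5 were far above the rest, fibrosis 1 and 3 were just above the highest control, and fibrosis 2 lay within the control range. Lgmn rose by 0.45 ± 0.15 on the log2 scale (SE; edgeR adjusted p = 0.0311), with means of 307 ± 69.4 CPM in fibrosis and 225 ± 30.6 CPM in control. Without fibrosis 4 and 5 the change was 0.20 (95% interval -0.04 to 0.44; edgeR adjusted p = 0.171). The edgeR call was also lost without fibrosis 4 (adjusted p = 0.0682), fibrosis 5 (0.0776), control 1 (0.0546), control 3 (0.0757) or control 5 (0.0838). Macrophage markers were also highest in fibrosis 4 and 5, but in fibrosis 1 to 3 their mean log2 level lay below the control mean (-0.76, -0.88 and -0.90), where Lgmn lay above its own (0.24, 0.09 and 0.28). Their part in the Lgmn result was not tested.

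Ctsb, Ctsd and Ctsl encode cathepsins B, D and L, the broad lysosomal endopeptidases of macrophages and most other cells. Ctsb (ENSMUSG00000021939, chromosome 14, 63122462 to 63145923, plus strand) also has carboxypeptidase activity. It measured 782, 688, 658, 1656 and 1709 CPM in fibrosis 1 to 5, and 1150, 1393, 838, 1308 and 1069 CPM in control 1 to 5. Fibrosis 1 to 3 lay below every control and fibrosis 4 and 5 above every control. Over all libraries the log2 change was -0.07 (95% interval -0.70 to 0.57; edgeR adjusted p = 0.878). Without fibrosis 4 and 5, Ctsb fell by 0.69 ± 0.15 on the log2 scale (SE; edgeR adjusted p = 0.00337), from 1151 ± 217 CPM in control to 709 ± 64.4 CPM in the remaining 3 libraries. The libraries left out were the highest of all for Ctsb, so this fall and its p-value are partly fixed by that choice.

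Ctsd (ENSMUSG00000007891, chromosome 7, 142375911 to 142388038, minus strand), which cuts proteins between hydrophobic residues, followed the same library order in part. Its values were 273, 208, 205, 662 and 535 CPM in fibrosis 1 to 5, and 352, 399, 271, 409 and 343 CPM in control 1 to 5. Fibrosis 4 and 5 exceeded every control, fibrosis 2 and 3 were under every control, and fibrosis 1 was close to control 3. The log2 change was 0.09 over all libraries (95% interval -0.62 to 0.79; edgeR adjusted p = 0.861). Without fibrosis 4 and 5, Ctsd fell by 0.62 ± 0.14 on the log2 scale (SE; edgeR adjusted p = 0.00506), to 229 ± 38.2 CPM. Leaving out the highest libraries likewise partly fixes this fall of Ctsd. The E-boxes of its promoter window are described above; no measurement of TFEB binding was part of these data.

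Ctsl (ENSMUSG00000021477, chromosome 13, 64359337 to 64370890, minus strand), which degrades the invariant chain in thymic epithelium, was far less abundant. It stood at 17.9, 14.2, 16.7, 37.2 and 36.2 CPM in fibrosis 1 to 5, and at 19.5, 26.8, 14.8, 24.0 and 17.8 CPM in control 1 to 5. Again fibrosis 4 and 5 were above all controls, whereas fibrosis 1 and 3 lay inside the control range and fibrosis 2 just under it. Its log2 change was 0.24 (95% interval -0.38 to 0.87; edgeR adjusted p = 0.541), and -0.33 without fibrosis 4 and 5 (95% interval -0.73 to 0.06; edgeR adjusted p = 0.175). In the annotation an antisense gene shares 1742 exon bases with Ctsl and a pseudogene on the same strand shares 395, and both held 0 counts. Ctsd shares 808 of its 2351 exon bases with Gm49369, a protein-coding gene on the same strand that held 0 counts. How reads over these shared bases were counted is not known here.

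The spread of these 3 genes in fibrosis was unusual among expressed genes. The coefficient of variation over the 5 fibrosis libraries was 48.7% for Ctsb, 55.5% for Ctsd and 46.2% for Ctsl. Those values stand at percentiles 97.3, 98.1 and 96.7 of the 9290 genes over 10 CPM, whose median was 15.2%. In control the coefficients were 18.8%, 15.4% and 23.4%, beside a median of 8.34%. Macrophage markers were ordered alike: relative to the control mean, their mean log2 level was -0.76, -0.88, -0.90, 0.68 and 0.94 in fibrosis 1 to 5. Ranked by the macrophage sum, the 10 libraries stood in the same order as by Ctsb, from fibrosis 5 down to fibrosis 3. Control 3, the lowest control for that sum, was also the lowest control for Ctsb, Ctsd and Ctsl. In the fit without fibrosis 4 and 5, 14 of 20 macrophage markers were called, all lower, with a median log2 change of -0.92. Fibrosis 4 and 5 had the highest macrophage sums, so leaving them out by itself lowers the fibrosis level of these markers. Over all libraries 1 was called higher (Marco, not called in that fit) and 1 lower (Siglec1), with a median of -0.20. The C1q chain gene C1qb, for example, had 113, 112, 107, 498 and 474 CPM in fibrosis 1 to 5. The part of macrophage transcripts in the levels of Ctsb, Ctsd and Ctsl was not tested.

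**Figure D2:**
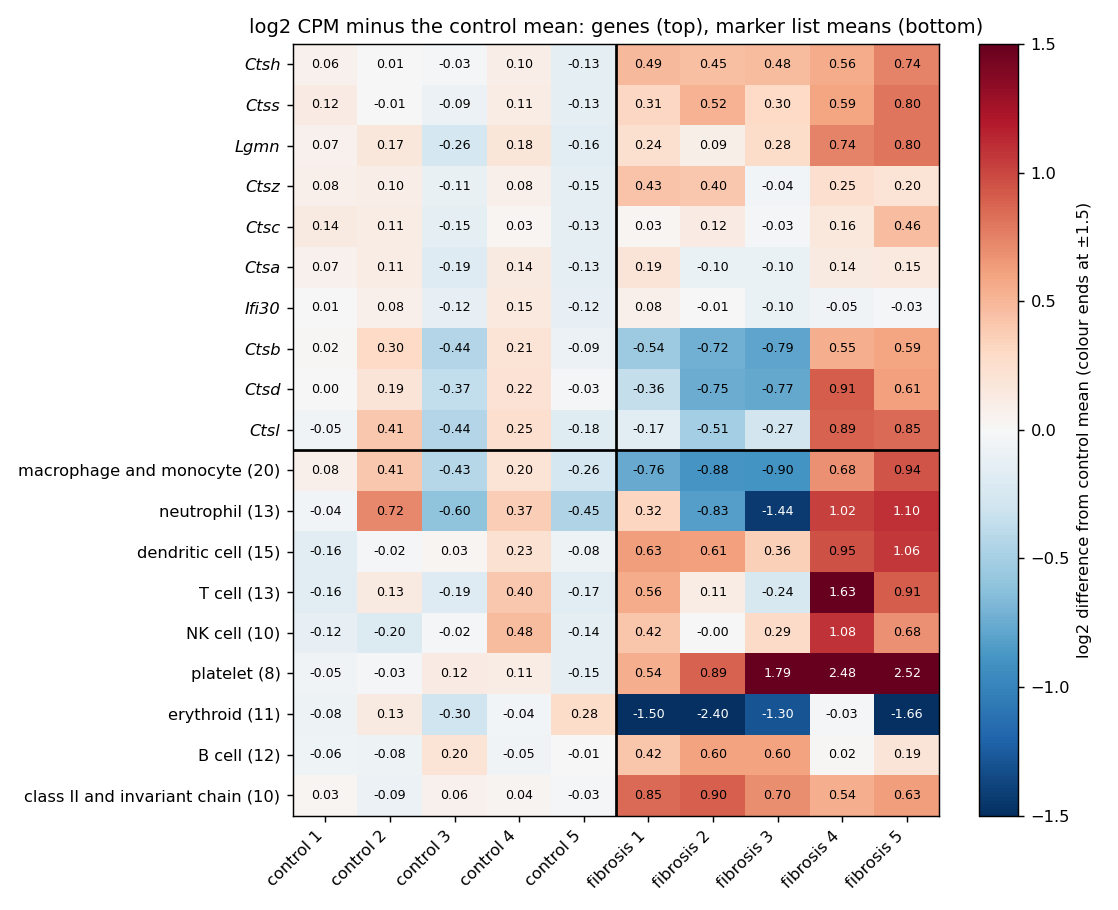
Log2 CPM of each gene minus its control mean (top 10 rows) and the same averaged over each marker list (bottom rows; number of genes in brackets, 0.5 CPM added), for every library; red is above and blue below the control mean, and colours end at ±1.5. Ctsb, Ctsd, Ctsl and the macrophage list are below 0 in fibrosis 1 to 3 and above 0 in fibrosis 4 and 5, whereas Ctsh and Ctss are above 0 in all 5.

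Ctsz and Ctsc, exopeptidases that finish peptides from either end, did not pass the test. Ctsz (ENSMUSG00000016256, cathepsin Z, a carboxypeptidase; chromosome 2, 174427493 to 174439039, minus strand) had 549, 537, 398, 485 and 467 CPM in fibrosis 1 to 5, and 429, 437, 377, 431 and 367 CPM in control 1 to 5. Fibrosis 1, 2, 4 and 5 were above all controls and fibrosis 3 was within their range. The log2 change was 0.25 (95% interval 0.03 to 0.48), with an edgeR adjusted p of 0.0710. It was called without fibrosis 3 (log2 change 0.30; edgeR adjusted p = 0.0358) and by limma voom (adjusted p = 0.0408), and in no other of the 22 alternatives. Without fibrosis 4 and 5 the log2 change was 0.28 (95% interval 0.04 to 0.52; edgeR adjusted p = 0.0608).

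Ctsc (ENSMUSG00000030560, chromosome 7, 88278085 to 88310888, plus strand) encodes the dipeptidyl peptidase that activates the serine proteases of cytotoxic and myeloid granules. It had 263, 281, 253, 288 and 354 CPM in fibrosis 1 to 5, and 285, 278, 233, 263 and 236 CPM in control 1 to 5. Fibrosis 5 was well above the controls, and fibrosis 4 just above the highest of them. Its log2 change was 0.15 (95% interval -0.08 to 0.38; edgeR adjusted p = 0.286), and 0.04 (-0.14 to 0.23) without fibrosis 4 and 5. Of 9 tested granule proteases and their partners, 1 was called: Mcpt8, higher in fibrosis, a basophil protease, at 1.44 ± 1.12 against 0.493 ± 0.295 CPM (edgeR adjusted p = 0.0395). Mcpt8 was not called without fibrosis 4 and 5 (log2 change 0.65, edgeR adjusted p = 0.303), and in that fit 1 other gene of this list was called lower. The cytotoxic genes Gzmb and Prf1 were at 3.20 ± 1.16 and 14.7 ± 1.22 CPM in fibrosis, with log2 changes of 0.62 ± 0.35 and 0.28 ± 0.15 (edgeR adjusted p = 0.186 and 0.176).

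Ctsa (ENSMUSG00000017760, chromosome 2, 164832873 to 164841032, plus strand) encodes protective protein/cathepsin A, which also stabilises the sialidase Neu1 and the galactosidase Glb1 in a lysosomal complex. Its level was 375, 307, 307, 364 and 364 CPM in fibrosis 1 to 5, and 346, 355, 288, 363 and 300 CPM in control 1 to 5. The groups overlapped, with fibrosis 1, 4 and 5 above the highest control. The log2 change was 0.06 (95% interval -0.16 to 0.27; edgeR adjusted p = 0.701), and 0.01 (-0.22 to 0.23) without fibrosis 4 and 5. Of its partners, Neu1 changed by 0.21 ± 0.08 and Glb1 by -0.05 ± 0.09 on the log2 scale, and neither was called (edgeR adjusted p = 0.0698 and 0.711). Exons of Ctsa share bases with Neurl2 (324) and Pltp (495) on the other strand, and Ctsb shares 774 with Fdft1. Whether the counting used strand is unknown here, so reads over those bases cannot be assigned. These neighbours held 978, 5595 and 4042 counts in all, against 55996 for Ctsa and 184973 for Ctsb.

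Ifi30 (ENSMUSG00000031838, chromosome 8, 70762774 to 70766663, minus strand, listed with the biotype processed transcript) varied least of the members between fibrosis libraries. It had 496, 464, 436, 451 and 460 CPM in fibrosis 1 to 5, and 472, 496, 430, 518 and 432 CPM in control 1 to 5, with every fibrosis library inside the control range. Its log2 change was -0.03 (95% interval -0.21 to 0.16; edgeR adjusted p = 0.845), and -0.00 (-0.19 to 0.18) without fibrosis 4 and 5. The coefficient of variation in fibrosis, 4.75%, stood at percentile 2.31 of the 9290 genes over 10 CPM, and that in control was 8.31%. In contrast, 9 of 10 tested genes of the class II chains, invariant chain and peptide editors were called, all higher (median log2 change 0.74). Without fibrosis 4 and 5, all 10 were called higher. Within the fibrosis group their sum was lowest in those libraries (25768 and 26274 CPM), so leaving them out by itself raises the fibrosis level of this list. H2-Aa, the alpha chain of I-A, went from 2264 ± 114 to 4494 ± 212 CPM, a log2 change of 0.99 ± 0.08 (edgeR adjusted p = 1.34e-05). Its FPKM ratio therefore differed: Ifi30 to H2-Aa was 0.397 ± 0.0369 in control and 0.196 ± 0.0111 in fibrosis (SD, n = 5 each), and the 2 ranges (0.347 to 0.445, and 0.183 to 0.214) did not overlap. Cd74, the substrate of Ctss, rose by 0.56 ± 0.13 on the log2 scale (edgeR adjusted p = 0.00556), and H2-DMb1 and H2-Oa, chains of the peptide editors, by 0.78 ± 0.08 and 0.90 ± 0.09 (edgeR adjusted p = 2.60e-05 and 1.72e-05). The FPKM ratio of Ctss to Cd74 was 0.0574 ± 0.0181 in fibrosis and 0.0567 ± 0.00427 in control. It ran from 0.0390 in fibrosis 1 to 0.0830 in fibrosis 5, a wider range than the controls' 0.0516 to 0.0610. Dendritic cell markers, another source of class II transcripts, were higher in the same libraries, and their part in these ratios was not tested.

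**Figure D3:**
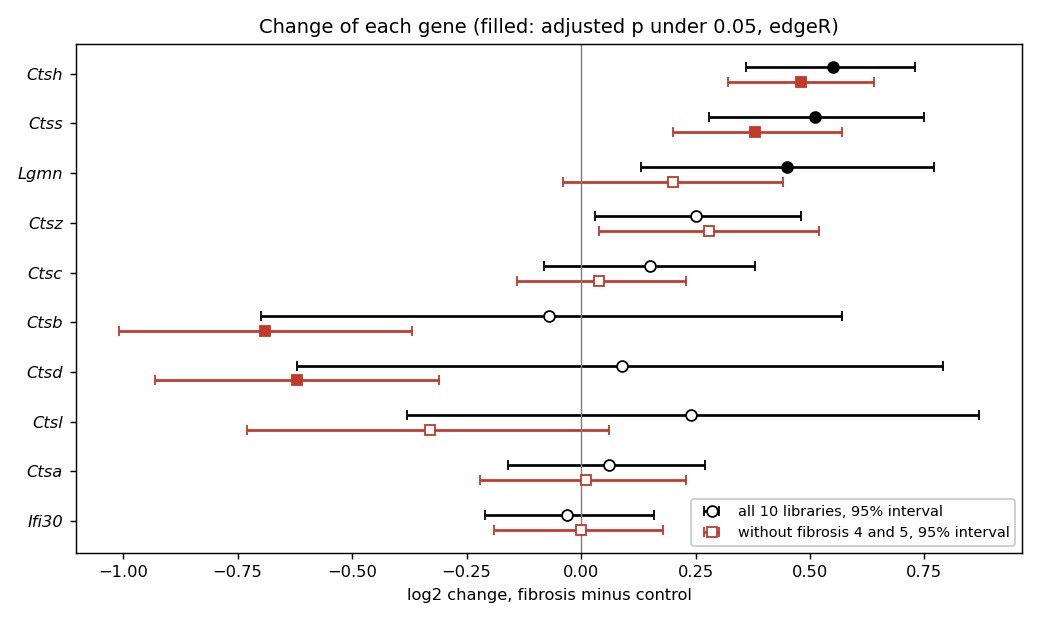
Log2 change of each gene (fibrosis minus control) with its 95% interval, over all 10 libraries (black circles) and without fibrosis 4 and 5 (red squares); filled symbols have an edgeR adjusted p under 0.05. Ctsh and Ctss are filled in both fits, Lgmn only over all libraries, and Ctsb and Ctsd only, and below 0, without fibrosis 4 and 5. The libraries left out were the highest for Ctsb and Ctsd, which partly fixes their fall in that fit.

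By FPKM, Ifi30 and Ctss had the highest levels of the set. The length used for each gene was that of all its annotated exon bases (6051 for Ctsb, 981 for Ifi30), not of 1 transcript. The order between genes depends on this length. By CPM, which takes no account of length, Ctsb was highest in control (1151 ± 217, against 470 ± 39.0 for Ifi30 and 452 ± 36.1 for Ctss). In control, the FPKM levels were 478 ± 41.5 for Ifi30, 333 ± 27.8 for Ctss, 283 ± 24.2 for Ctsz, 190 ± 36.6 for Ctsb and 151 ± 24.0 for Ctsd (SD, n = 5). Below these came Lgmn at 96.8 ± 13.6, Ctsa at 70.0 ± 7.50, Ctsh at 59.3 ± 3.77, Ctsc at 44.6 ± 4.31 and Ctsl at 3.17 ± 0.753 FPKM. The ranges overlapped between the neighbours Ctss and Ctsz, Ctsb and Ctsd, and Ctsa and Ctsh. In fibrosis, Ctss reached 467 ± 55.2 FPKM and overlapped with Ifi30 at 464 ± 31.9 FPKM, and Ctsh at 85.3 ± 4.94 FPKM overlapped with Ctsa at 71.7 ± 7.30 FPKM. Ctsb (177 ± 82.5 FPKM), Ctsd (157 ± 85.0 FPKM) and Lgmn (130 ± 26.3 FPKM) had overlapping ranges between neighbours there. The other fibrosis levels were 334 ± 47.6 FPKM for Ctsz, 48.7 ± 5.22 for Ctsc and 3.68 ± 1.63 for Ctsl.

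The makeup of the set shifted between libraries. Its summed FPKM was 1937 ± 241 in fibrosis and 1709 ± 172 in control, with overlapping ranges. Of this sum, Ctss held 24.2 ± 1.80% in fibrosis and 19.5 ± 1.10% in control, and Ctsh 4.44 ± 0.406% and 3.48 ± 0.216%, both without overlap. Ifi30 held 26.0% to 27.2% in fibrosis 1 to 3 and 20.6% and 20.5% in fibrosis 4 and 5, against 28.0 ± 0.702% in control. Ctsb held 6.91%, 6.23% and 6.65% in fibrosis 1 to 3, and 12.3% in both fibrosis 4 and fibrosis 5, beside 11.1 ± 1.23% in control. The FPKM ratio of Ctss to Ctsb was thus 3.19, 4.19 and 3.76 in fibrosis 1 to 3, 1.83 and 2.04 in fibrosis 4 and 5, and 1.43 to 2.26 in control. By contrast, the ratio of Ctsb to Ctsd was 1.17 ± 0.128 in fibrosis and 1.26 ± 0.0622 in control, and it fell outside the control range in fibrosis 1 (1.11) and fibrosis 4 (0.972). Shares of a sum are linked, so a gain of 1 gene lowers the others.

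**Figure D4:**
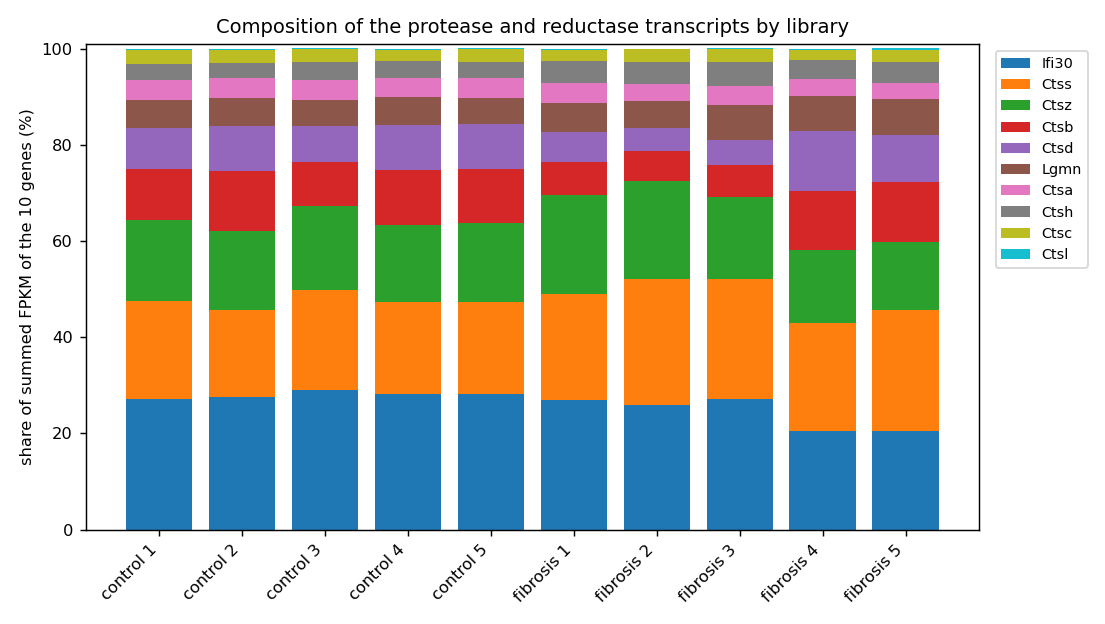
Share of the summed FPKM of the 10 genes that each gene holds (%, stacked bars) in each control and fibrosis library. Ctss (orange) and Ctsh (grey) take a larger share in every fibrosis library than in any control, whereas Ctsb (red) and Ctsd (purple) are narrow in fibrosis 1 to 3 and wide in fibrosis 4 and 5.

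Likeness to the called members was measured as the root-mean-square difference of log2 CPM, each gene relative to its control mean, over the 10 libraries and 9829 protein-coding genes. The genes closest to Ctsh were Rogdi (0.0732), Ano10 (0.0744) and Thap3 (0.0761). Those closest to Ctss were Akr1b3 (0.0730), Mettl23 (0.0752) and Thap3 (0.0795). Lgmn was most alike to Apool (0.0863), Ssr4 (0.0971) and Nop10 (0.0975). Rogdi had 104 CPM in fibrosis and 74.2 CPM in control, and Akr1b3 170 and 124 CPM. All of these 8 genes were higher on average in fibrosis, with log2 changes of 0.36 to 0.52, which follows from how they were picked. Apool and Nop10 were not called (edgeR adjusted p = 0.0697 and 0.0742).

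The remaining cathepsin genes were mostly silent: 10 of 15 did not reach the filter on low counts. Of the 5 tested, Ctse fell and Ctso rose. Ctse, an aspartic endosomal protease that is also abundant in erythroid cells, was at 155, 108, 165, 133 and 49.1 CPM in fibrosis 1 to 5, and at 474, 454, 400, 416 and 588 CPM in control 1 to 5. All fibrosis libraries were below all controls, as for 14.0% of tested genes. The log2 change was -1.93 ± 0.27 (SE; edgeR adjusted p = 0.000282), and -1.70 without fibrosis 4 and 5 (edgeR adjusted p = 2.20e-05). Of 11 tested erythroid markers, 6 were called lower. The sum of that list lay below all controls in fibrosis 1, 2, 3 and 5. In fibrosis 4 it lay above them (7524 CPM against 3549 to 5886 CPM). The part of erythroid transcripts in the Ctse result was not tested. Ctso, a cysteine cathepsin of uncertain role, went from 44.9 ± 3.57 to 69.8 ± 15.1 CPM (log2 change 0.64 ± 0.13; edgeR adjusted p = 0.00234), with no overlap. Ctsf and Ctsw were not called, with log2 changes of -0.53 ± 0.35 and 0.45 ± 0.22 (edgeR adjusted p = 0.259 and 0.128). Ctsf was called lower without fibrosis 4 and 5, at -1.16 on the log2 scale (edgeR adjusted p = 0.00366).

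Among 9 other endosomal and lysosomal enzymes (8 peptidases and the phospholipase Pla2g15), 2 were called higher and 1 lower, and 4 and 3 without fibrosis 4 and 5 (median log2 change 0.12 and 0.10). Lnpep (IRAP), an aminopeptidase of endosomes used in cross-presentation, rose from 138 ± 23.0 to 214 ± 46.9 CPM (log2 change 0.63 ± 0.15; edgeR adjusted p = 0.00628). Ide, the insulin-degrading enzyme, rose by 0.33 ± 0.08 and the tripeptidyl peptidase Tpp1 fell by 0.32 on the log2 scale (edgeR adjusted p = 0.00652 and 0.00281). Napsa, an aspartic protease known from lung and kidney, was at 376 ± 82.2 CPM against 325 ± 26.2 CPM (log2 change 0.21; edgeR adjusted p = 0.237), and was called higher without fibrosis 4 and 5 (0.36; edgeR adjusted p = 0.0421). Prcp, a carboxypeptidase, had a log2 change of 0.18 ± 0.08 (edgeR adjusted p = 0.109).

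Of 7 tested inhibitors (cystatins, stefins and 2 serpins), which block cathepsins or granule proteases, 2 were called, both higher (median log2 change 0.52, and 0.13 without fibrosis 4 and 5). Cst3, the secreted inhibitor cystatin C, had 961, 947, 626, 1479 and 1727 CPM in fibrosis 1 to 5, and 618, 674, 505, 713 and 567 CPM in control 1 to 5. Fibrosis 4 and 5 were again highest, and fibrosis 3 was within the control range. Its log2 change was 0.90 ± 0.23 (edgeR adjusted p = 0.00903), and 0.47 without fibrosis 4 and 5 (edgeR adjusted p = 0.0282). Dendritic cells and macrophages express Cst3, and their markers were highest in fibrosis 4 and 5. In fibrosis 1 and 2, where Cst3 was above all controls, the macrophage sums (3672 and 2932 CPM) were below all controls. The part of these cells in the Cst3 result was not tested. Serpinb1a, which inhibits neutrophil serine proteases, rose by 0.52 ± 0.10 on the log2 scale (edgeR adjusted p = 0.00151), with no overlap between groups. The cytosolic inhibitor Cstb had a log2 change of 0.52 ± 0.20, Stfa2l1 of 1.10 ± 0.65 and Cst7 of 0.32 ± 0.32, none of them called (edgeR adjusted p = 0.0537, 0.208 and 0.465).

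Other lysosomal genes are set beside the 18.6% called higher and 17.2% called lower among all tested genes. Of 41 glycosidases, lipases and sulfatases, 7 were called higher and 2 lower, with a median log2 change of -0.02, and 10 and 4 were called without fibrosis 4 and 5. Naaa, an amidase of N-acylethanolamines, rose from 125 ± 13.1 to 243 ± 35.6 CPM (log2 change 0.95 ± 0.11; edgeR adjusted p = 5.59e-05), and all fibrosis libraries were above all controls. The palmitoyl thioesterase Ppt1 rose by 0.65 ± 0.10, whereas the hyaluronidase Hyal2 fell by 0.72 on the log2 scale (edgeR adjusted p = 0.000342 and 0.000911). Of 30 lysosomal membrane proteins, 7 were called higher and 2 lower (median -0.01), and 7 and 5 without fibrosis 4 and 5. The tetraspanin Cd63 rose from 6.51 ± 0.915 to 21.9 ± 11.3 CPM (edgeR adjusted p = 0.000959), and it is also abundant in platelets, whose markers rose in the same libraries; their part was not tested. Lamp3, Cd164 and the cation channel Tpcn1 were called as well, with log2 changes of 1.27 ± 0.23, 0.45 ± 0.08 and -1.36 ± 0.17 (edgeR adjusted p = 0.000994, 0.000990 and 9.09e-05). Lamp3 was scarce, at 2.46 ± 0.594 CPM in fibrosis and 1.02 ± 0.125 CPM in control, with 282 counts over all libraries. The main membrane glycoproteins were not called: Lamp1 had a log2 change of 0.00 ± 0.14 and Lamp2 of 0.43 ± 0.16 (edgeR adjusted p = 0.999 and 0.0523).

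Subunits of the proton pump, which acidifies the lumen for the cathepsins, were called higher for 2 and lower for 2 of 18 (median log2 change 0.07). Tcirg1 and Atp6v0a1, versions of its a subunit, both fell by 0.38 on the log2 scale (edgeR adjusted p = 0.00455 and 0.0120). Atp6v0e and Atp6v1f were called higher, by 0.58 ± 0.19 and 0.40 ± 0.13 (edgeR adjusted p = 0.0313 and 0.0312), and neither was called without fibrosis 4 and 5 (edgeR adjusted p = 0.105 and 0.167). In mannose 6-phosphate tagging and sorting, the route by which cathepsin precursors reach the lysosome, 3 of 18 genes were called, all lower, a share near the 17.2% of all tested genes. Without fibrosis 4 and 5, 4 were called, all lower, beside 18.8% of all genes in that fit. Igf2r, the large mannose 6-phosphate receptor, fell from 50.4 ± 4.24 to 33.5 ± 4.54 CPM (log2 change -0.59 ± 0.10; edgeR adjusted p = 0.000804), without overlap. Vps26b and Gga3 fell by 0.58 and 0.19 on the log2 scale (edgeR adjusted p = 0.00471 and 0.0403), Gga3 was not called without fibrosis 4 and 5 (edgeR adjusted p = 0.0656), and the small receptor M6pr had a log2 change of -0.05 ± 0.07 (edgeR adjusted p = 0.639). Vps26a, the other retromer subunit of its kind, stood at 0.22 ± 0.08 and was not called (edgeR adjusted p = 0.0535).

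TFEB and its relatives, which drive lysosomal genes when mTORC1 releases them, were followed with their regulators in 19 genes, of which 1 was called higher and 2 lower, and 3 and 4 without fibrosis 4 and 5. Tfeb itself had a log2 change of 0.25 ± 0.11 (edgeR adjusted p = 0.0943), and 0.38 without fibrosis 4 and 5 (edgeR adjusted p = 0.0112). Tfe3 was at 65.5 ± 5.86 CPM in fibrosis and 65.6 ± 5.60 CPM in control. The called genes were Rragb, a Rag GTPase (0.55 ± 0.20), Fnip2, a folliculin partner (-0.80 ± 0.14), and Rptor, the raptor subunit (-0.38 ± 0.10), with edgeR adjusted p of 0.0487, 0.000846 and 0.00797.

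**Figure D5:**
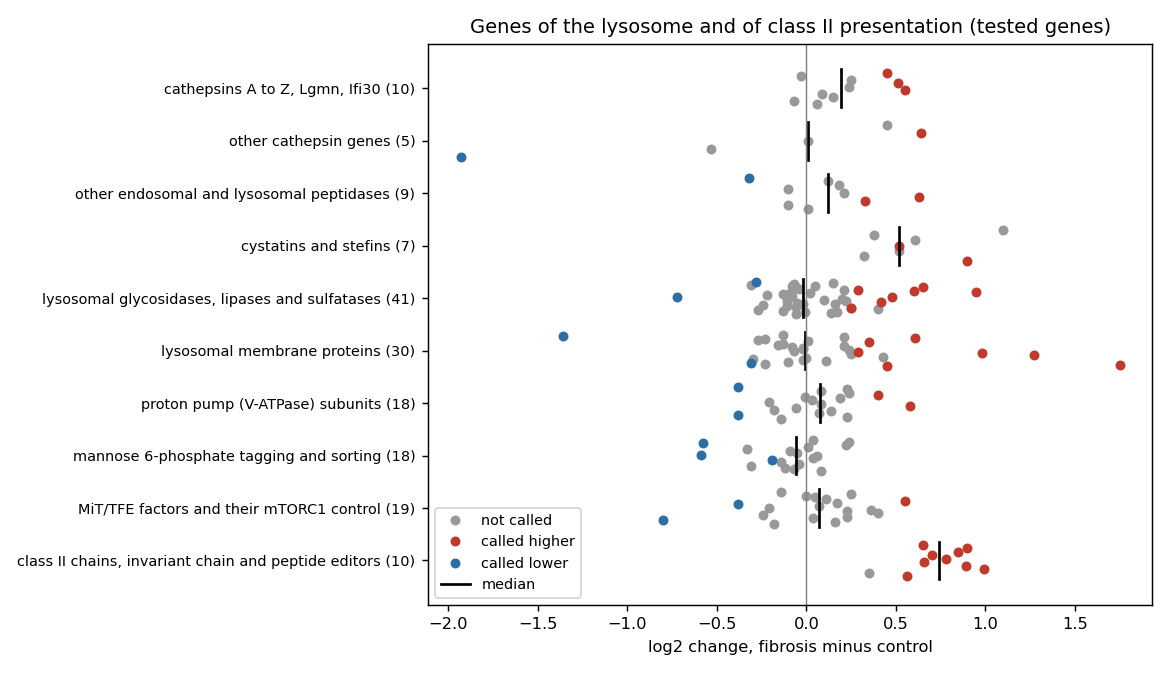
Log2 change (fibrosis minus control) of each tested gene in the set and in the other lysosome and class II lists (number tested in brackets); red and blue points were called higher and lower by edgeR, grey points were not called, and black bars are medians. The class II list lies to the right of 0, with 9 of 10 genes called, whereas the hydrolase, membrane, proton pump, sorting and TFEB lists are spread around 0.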

How the data were processed

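RNA sequencing covered splenic B cells in 10 libraries, 5 per group by the disease state in the labels. Not given in the sources used here are the B cell isolation, the aligner, the counter and the use of strand. Poly-A RNA was, per the labels' protocols, fragmented and reverse transcribed with random hexamers. The submitters' processing notes name GRCm38 (mm10). The authors deposited whole-number read counts per gene and FPKM values (counts per gene length and library size). All columns of sample values were used (0 left out).

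Counts were tested with edgeR 4.0.16 in R 4.3.3: filterByExpr kept 14283 genes (99.9% of counts), TMM scaled the libraries, and the quasi-likelihood test compared the groups without covariates. P-values were adjusted over all tested genes by Benjamini-Hochberg, and a gene was called under 0.05. Nothing in the labels makes each library a separate mouse; p-values therefore measure library-to-library spread, which may be technical. FPKM was used to compare levels between genes. Deposited coordinates of all 10 genes equalled those of GENCODE vM21.

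The 10 genes and all lists were chosen with earlier results of these data known. Named genes are the 10, up to 4 tested genes with the smallest p of each list, a fixed set (Cd74, Cst3, Cstb, Cst7, Neu1, Glb1, Tfeb, Tfe3, Lamp1, Lamp2, M6pr, Igf2r, Napsa, Ctse, Prf1, Gzmb) and, for each called member, the 3 most alike protein-coding genes averaging 5 CPM or more; C1qb was added after its values were seen. Some genes given by this rule are not reported here. The B cell, plasma cell and other marker lists are summarised by counts. The 22 alternatives were other scalings and filters, DESeq2 1.42.0, limma 3.58.1 (voom with quality weights, and log2 of FPKM plus 1 or 0.1), the replicate number as a block, each library left out, and fibrosis 4 and 5 left out. The code was tested on simulated counts. No pair of libraries agreed within sampling noise (chi-square per degree of freedom at least 5.81).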

Additional observations from a re-analysis of the deposited data

How the results depend on the processing

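Ctsh and Ctss were called higher under all 22 alternatives (log2 changes 0.44 to 0.57 and 0.38 to 0.56), and Lgmn kept its direction in all and its call in 12; the call was lost with library size only (edgeR adjusted p = 0.0802), by voom (limma adjusted p = 0.149), in 2 of 3 FPKM fits (limma adjusted p = 0.0506 and 0.126) and in the fits without libraries given in the report. Ctsz, Ctsc, Ctsa and Ifi30 were not called in any alternative except Ctsz, called in 2. The count of members called lower was 0, and 2 without fibrosis 4 and 5. That of members called higher ran from 2 to 4 with 1 library left out. Signs that turned belonged to members near 0, none called except Ctsd without fibrosis 4 and 5 (-0.62). Ctsa was -0.05 with library size only and -0.03 by voom. Ctsd was -0.04 with library size only, -0.42 by voom and -0.09 in the 3 FPKM fits. Ctsl was -0.23 by voom and -0.33 without fibrosis 4 and 5. With 1 library left out, Ctsb ran from -0.28 to 0.06, Ctsd from -0.22 to 0.24 and Ifi30 from -0.06 to 0.01. The causes were not tested, beyond the fewer libraries of the fits that leave some out. Library size alone moved the median of all genes from 0.05 to -0.06. Of 836 list counts under alternatives, 133 moved by more than 1.5 times.

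Replicate numbers are shared between groups. Deviations of same-numbered libraries correlated at 0.109, -0.127, 0.419, 0.254 and -0.248, and numbers 1, 3 and 4 matched their own number best. These values do not settle whether the numbers are pairs. The labels give no pairing, so the main fit did not use it. With the replicate number as a block, 2677 genes were called higher and 2534 lower, of which 4824 were also called without it, the same 3 members were called, and Ctsd was -0.07. With 230 counts or more per library for each member, depth limits these values less than the spread between libraries.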

Other observations

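Of 7 tested plasma cell markers, 1 was called higher (Mzb1, a chaperone of antibody-secreting and marginal zone B cells, log2 change 0.58 ± 0.09; edgeR adjusted p = 0.000353) and 1 lower (Derl3, -0.49 ± 0.18; edgeR adjusted p = 0.0429), which was not called without fibrosis 4 and 5 (-0.29; edgeR adjusted p = 0.185). The 8 plasma cell genes summed to 631 to 866 CPM in fibrosis and 598 to 756 CPM in control. Of the 12 B cell markers, 5 were called over all libraries and 11 without fibrosis 4 and 5, all higher. Within the fibrosis group the sum of this list was lowest in fibrosis 4 and 5 (7699 and 8172 CPM). Leaving them out by itself therefore raises the fibrosis level of these markers. Cr2, the complement receptor high on marginal zone B cells, had 473 ± 96.0 CPM in fibrosis and 189 ± 27.5 CPM in control (log2 change 1.32 ± 0.14; edgeR adjusted p = 3.74e-05). Bank1, a B cell receptor scaffold, rose by 0.73 ± 0.14 on the same scale (edgeR adjusted p = 0.00165).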
